A study of Mus musculus with 2 samples.

Results

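The endoplasmic reticulum (ER) of beta cells is filled with calcium by pumps, emptied through release channels and refilled through store-operated entry, and 10 genes of these steps are described here in the mouse insulinoma line MIN6. They were chosen by gene symbol, as 10 of the 30868 features of the deposited table, and all 10 were found. They comprise 2 genes of SERCA pumps (Atp2a2, Atp2a3), 3 of IP3 receptors (Itpr1, Itpr2, Itpr3), the ryanodine receptor gene Ryr2, 2 of STIM calcium sensors (Stim1, Stim2) and 2 of Orai channels (Orai1, Orai3). The study asked how lactate dehydrogenase A acts on histone lactylation and beta cell function when glucose is toxic. It gave 2 RNA-seq libraries of MIN6, a transformed line used as a beta cell model, 1 labelled as normal (spelled nomal) and the other as high glucose and palmitate, called treated below. The treatment text names glucose at 33.3 mmol/l, palmitate at 0.4 mmol/l and 0.5% albumin, and it stands on both records. What medium the normal library had is therefore not stated on its own, nor whether it also had palmitate. The library titles are NGP for normal and HGP for treated. The labels name no genetic change, and the sources used here do not give the length of treatment.

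As background, SERCA pumps use ATP to move calcium from the cytosol into the ER lumen, where folding enzymes and chaperones bind it. IP3 receptors open when phospholipase C has made IP3, and ryanodine receptors open on calcium itself. When the lumen is depleted, STIM proteins in the ER membrane gather beside the plasma membrane and open Orai channels, through which calcium enters from outside.

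Levels are RPKM, reads scaled by exon length and by library size. The length is that of all listed exons of a gene after merging, which can exceed the transcript expressed. Comparisons between genes therefore depend on the listed exons, while ratios between libraries do not. Reads recovered from the RPKM values numbered 44149406 in normal and 43727919 in treated cells. With 1 library per group there was no replicate check and no p-value was computed. A ratio is always treated over normal, and the range after it is an exact 95% interval that covers counting error only. Of counts from 1 to 20 reads in the table, 76.3% were even, a pattern that counting each mate of a pair would give, and the intervals would then be too narrow. The 10 beta cell markers looked up were all above a mean of 1 RPKM, with a summed level of 6360 RPKM in normal and 5803 in treated cells. Most of this sum was Iapp, at 4664 and 4692 RPKM, and 9 of the 10 markers were lower in treated cells with counting intervals below 1. Their ratios ran from 0.527 for Ins1 and 0.606 for Ins2 through 0.771 for Pdx1 to 0.906 for Slc30a8, so most of these differences were as large as those of the pump genes or larger. Markers of striated muscle, a tissue rich in these pumps and channels, summed to 0.270 and 0.268 RPKM. Those in the table went both ways, with Myh7 at 67 and 35 reads and Actn2 at 2 and 0. Ckm had 9 and 17 reads and Tnnt2 had 4 and 14. The mesenchyme markers summed to 0.394 and 0.426 RPKM and the endothelial markers to 0.0873 and 0.114 RPKM. The alpha cell markers in the table went both ways, with Ttr at 57.0 and 65.0 RPKM and the hormone gene Gcg at 7.31 and 4.68 RPKM, and summed to 64.4 and 69.6 RPKM. The delta cell markers summed to 7.45 and 9.68 RPKM. The immune markers summed to 0.971 and 2.10 RPKM, and most of this was Cd68, with 50 and 111 reads. Of the ductal markers, Krt19 had 0 reads in both libraries and Sox9 had 0 and 2. Of the acinar markers in the table, Pnlip had 0 reads, Cel had 2 and 3, and Cela1 had 12 and 13. The part of these shifts in the results below was not tested.

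The levels of the 10 genes spanned a wide range that was nearly the same in both libraries. From high to low in the normal library the order was Atp2a3, Atp2a2, Stim2, Stim1, Orai3, Itpr1, Itpr3, Itpr2, Orai1 and Ryr2, from 192.5 to 0.276 RPKM. In the treated library Ryr2 stood above Orai1, and the other places were the same. Neighbours whose counting intervals overlapped were Itpr1 and Itpr3 in the normal library, Itpr2 and Orai1 in the normal library, and Ryr2 and Orai1 in the treated one. A mean of at least 1 RPKM was reached by 7 of the 10 genes, and Itpr2, Ryr2 and Orai1 were below it.

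**Figure D1:**
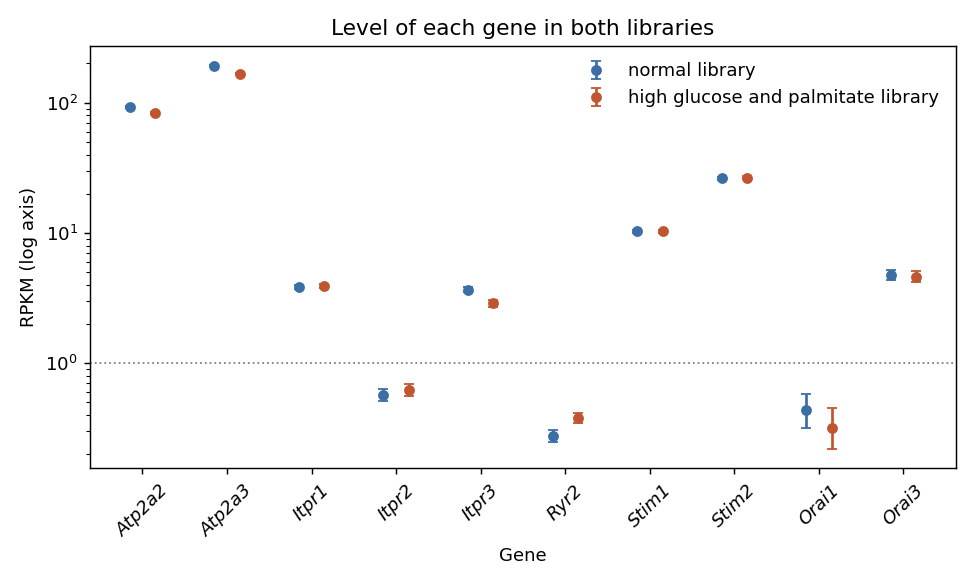
RPKM of the 10 genes (log axis) in the normal library (blue) and in the high glucose and palmitate library (orange), with exact 95% counting intervals as bars and a dotted line at 1 RPKM. The pump genes lie highest, at 83.4 RPKM or more, and Itpr2, Ryr2 and Orai1 lie below the line in both libraries.

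Differences between the libraries were small. Among the 7 genes past the filter, on the scale of log2(RPKM + 0.5), 1 gene (Itpr3) was at least 1.2-fold lower in the treated library and 0 were at least 1.2-fold higher. Over all 13947 features that averaged 1 RPKM or more, 8.84% were lower and 8.68% higher by that much, so 1 of 7 is near the background. None of the 7 differed by 1.5-fold, against 1.48% of all features lower and 1.74% higher, and none by 2-fold, against 0.366% and 0.538%. The log2 ratio was below 0 for 4 of the 7 and above 0 for 3, beside 49.3% and 50.7% of all features. The median log2 ratio of the 7 was -0.05, beside 0.0028 over all features. Counting intervals below 1 were found for 3 of the 7 (Atp2a2, Atp2a3 and Itpr3) and intervals above 1 for 0, beside 22.3% and 22.0% of all features. The interval depends on depth, so highly expressed genes such as the pumps pass it with small differences.

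**Figure D2:**
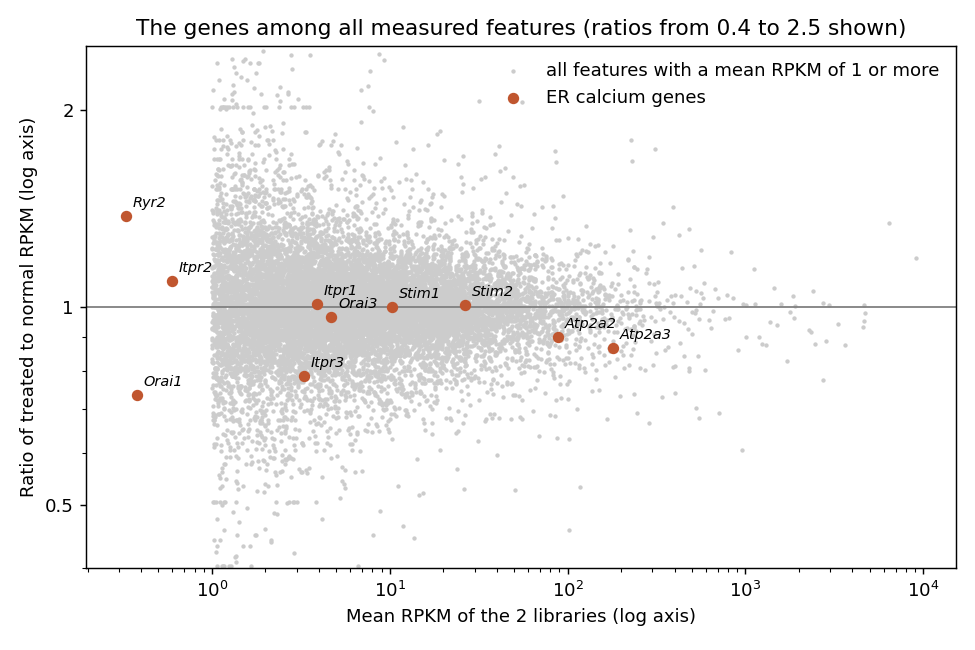
Ratio of treated to normal RPKM against the mean RPKM of both libraries, on log axes, for all features with a mean of 1 or more (grey) and for the 10 genes (orange). The pump genes and Itpr3 lie below a ratio of 1 but inside the spread of features of their own level.

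The pump genes were both lower in the treated library. Atp2a3 encodes SERCA3, a pump found in beta cells and blood cells that works at higher calcium levels than SERCA2, and it stood at 192.5 RPKM in normal and 166.9 RPKM in treated cells. Its ratio was 0.867 (0.855 to 0.879). Atp2a2 encodes SERCA2, the pump present in nearly all cells, and stood at 92.6 RPKM in normal and 83.4 RPKM in treated cells. Its ratio was 0.901 (0.884 to 0.917). In RNA of a whole culture, less RNA per cell and fewer cells that express a gene cannot be told apart. These ratios are not rare at such levels. Of the 392 features within 2-fold of the mean level of Atp2a3, 14.8% had a ratio as low or lower, and of the 915 around Atp2a2 19.1% did. The third gene of the family, Atp2a1, which encodes the SERCA1 pump of fast skeletal muscle, had 21 normal and 40 treated reads, or 0.137 and 0.263 RPKM, a ratio of 1.92 (1.11 to 3.43).

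Together the pumps of the 3 genes summed to 285.2 RPKM in normal and 250.6 in treated cells, a ratio of 0.878. Atp2a3 made up 67.5% of this sum in normal and 66.6% in treated cells, so the balance of the isoforms was almost the same. Relative to Atp2a2, Atp2a3 was lower by a ratio of 0.963 (0.941 to 0.985), a measure in which the scaling of the libraries cancels. Atp2a2 lies on chromosome 5 from 122591576 to 122640288 on the minus strand, and Atp2a3 on chromosome 11 from 72851995 to 72883870 on the plus strand (GRCm39). The table gives them 21 and 22 exons after merging of overlapping ones. Of the 6081 exonic bases of Atp2a2, 83 overlap the predicted gene Gm43361 on the opposite strand, while no exon of Atp2a3 overlaps another listed gene.

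Hspa5, the gene of the calcium-binding chaperone BiP of the ER lumen, differed the other way from the pumps, with 162.8 RPKM in normal and 293.1 in treated cells. The 250 bases before the start of Atp2a3 are shown with those of Hspa5, because these genes differed in direction. Beyond the 10 genes, matches were looked up for Hspa5 only. A link between motifs and direction was not tested. RefSeq promoter windows of build GRCm38.p6 were available for 8 of the 10 genes. Capitals mark matches to the motifs searched on both strands. Those were the ER stress element ERSE (CCAAT and CCACG with 9 bases between them), ERSE-II (ATTGG and CCACG with 1 base between them), the UPRE core (TGACGTGG), the cyclic AMP element CRE (TGACGTCA), the ATF4-type CARE core (TGATGCAA) and a GC box (GGGGCGGGG).
Atp2a3: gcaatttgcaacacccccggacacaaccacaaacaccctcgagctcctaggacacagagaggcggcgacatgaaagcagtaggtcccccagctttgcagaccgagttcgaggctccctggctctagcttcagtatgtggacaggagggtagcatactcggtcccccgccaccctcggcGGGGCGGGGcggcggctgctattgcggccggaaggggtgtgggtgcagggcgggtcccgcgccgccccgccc
Hspa5: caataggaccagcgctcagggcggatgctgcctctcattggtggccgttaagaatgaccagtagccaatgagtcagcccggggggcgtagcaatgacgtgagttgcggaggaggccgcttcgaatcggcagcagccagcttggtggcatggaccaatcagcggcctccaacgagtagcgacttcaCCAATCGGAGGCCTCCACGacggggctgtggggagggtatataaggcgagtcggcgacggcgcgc
The first sequence is chr11:72960919-72961168 on the plus strand and the second chr2:34771840-34772089 on the plus strand. Positions count back from -1, the base before the start. Hspa5 held 1 ERSE at -65 to -47, a match found in 0.113% of 32851 windows of the same length. Atp2a3 held a GC box at -72 to -64 and no match to the other 5 motifs. A match is a description of the letters only. Matches elsewhere were found in 0.0304% of windows for ERSE-II, 0.563% for the UPRE core, 1.55% for the CRE, 0.791% for the CARE core and 10.4% for the GC box. ERSE and ERSE-II end in the same CCACG.

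The IP3 receptor genes did not move alike. Itpr3, which encodes the type 3 receptor, stood at 3.67 RPKM in normal and 2.89 in treated cells, from 1463 and 1138 reads. Its ratio of 0.785 (0.726 to 0.849) was the lowest of the 7 genes past the filter. Of the 5764 features within 2-fold of its level, 7.18% had a ratio as low or lower. Itpr1, the gene of the type 1 receptor, had nearly equal levels of 3.87 and 3.91 RPKM, a ratio of 1.01 (0.962 to 1.06). Itpr2, the gene of the type 2 receptor, which binds IP3 most tightly, was low, with 0.568 and 0.623 RPKM and a ratio of 1.10 (0.9501 to 1.27).

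Within the family, Itpr3 was lower relative to Itpr1 by a ratio of 0.776 (0.707 to 0.852) and relative to Itpr2 by one of 0.716 (0.608 to 0.844). Itpr2 relative to Itpr1 had a ratio of 1.08 (0.931 to 1.26), which includes 1. The share of Itpr3 in the summed RPKM of the 3 genes was 45.3% in normal and 38.9% in treated cells, and that of Itpr1 was 47.7% and 52.7%. The sum itself was 8.11 RPKM in normal and 7.42 in treated cells. Itpr1 lies on chromosome 6 from 108190057 to 108528070 (plus strand), Itpr2 on chromosome 6 from 146009797 to 146403721 (minus strand) and Itpr3 on chromosome 17 from 27276278 to 27341197 (plus strand). Of the 9019 exonic bases of Itpr3, 233 overlap its antisense gene Itpr3os, which had 83 normal and 69 treated reads. Of the 18319 bases of Itpr1, 181 overlap Gm44101 and 108 overlap Gm44040, both on the opposite strand. The sources used here do not say whether strand was used in counting, and reads over these stretches cannot be assigned to 1 strand.

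The promoter window of Itpr3 is shown because Itpr3 had the lowest ratio of the genes past the filter.
Itpr3: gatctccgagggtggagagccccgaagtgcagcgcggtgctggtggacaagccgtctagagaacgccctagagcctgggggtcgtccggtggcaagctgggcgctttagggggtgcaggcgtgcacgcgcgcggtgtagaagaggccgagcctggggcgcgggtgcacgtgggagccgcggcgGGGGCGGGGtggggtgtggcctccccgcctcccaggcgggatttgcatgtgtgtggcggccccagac
It is chr17:27057054-27057303 on the plus strand (GRCm38.p6, RefSeq), and it held a GC box at -67 to -59. Itpr2 held the same box on the other strand at -66 to -58, and Stim2 held 2 copies, at -172 to -164 and at -17 to -9. Thus 4 of the 8 genes with a window held a GC box, beside 10.4% of all windows, and these 4 had ratios on both sides of 1. The upstream window of Itpr3 was 72.0% G or C and that of Atp2a3 66.8%, beside a median of 52.4% over all windows. All 8 windows were above this median, from 57.2% in Orai3 to 78.4% in Stim1, which held no GC box. Whether the count of GC boxes follows from the G or C content was not tested. None of the 8 windows matched ERSE, ERSE-II, the UPRE core, the CRE or the CARE core.

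Ryr2 was the one gene of the 10 whose counting interval lay above 1, beside 22.0% of all features that averaged 1 RPKM or more. It encodes the ryanodine receptor of heart, brain and beta cells, and stood at 0.276 RPKM in normal and 0.380 in treated cells, from 351 and 478 reads. The ratio was 1.37 (1.195 to 1.58). Both levels are low, and on the scale of RPKM plus 0.5 the log2 ratio was 0.18. Ryr2 lies below the filter, so its ratio was not ranked among features of like level. Its exons, 107 after merging, sum to 28790 bases, so a low RPKM still came from many reads. Ryr2 spans 553.8 kb of chromosome 13, from 11567988 to 12121831 on the minus strand, with no exon overlapping another listed gene. The other ryanodine receptor genes were close to 0, with 4 and 8 reads for Ryr1, the skeletal muscle form, and 7 and 2 reads for Ryr3. The release channels, as the sum of the 3 IP3 receptor genes and Ryr2, made up 8.38 RPKM in normal and 7.80 in treated cells. The summed RPKM of Atp2a2 and Atp2a3 was 34.0 times that of the channels in normal and 32.1 times in treated cells. That comparison between genes depends on the listed exon lengths.

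**Figure D3:**
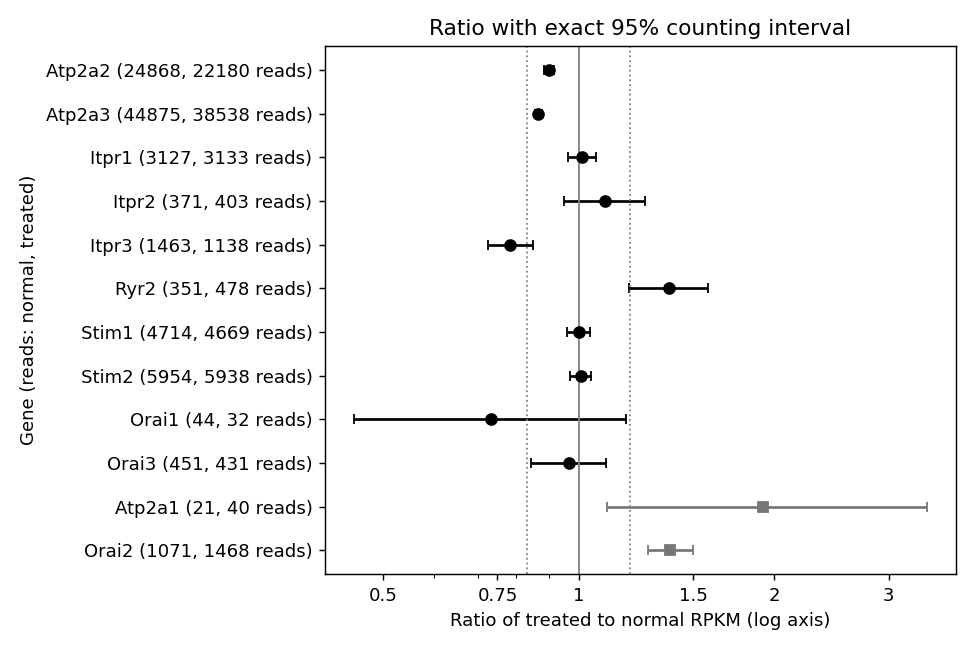
Ratio of treated to normal RPKM (log axis) with its exact 95% counting interval for the 10 genes (black circles) and for Atp2a1 and Orai2 (grey squares), with the reads of each library beside the name and dotted lines at 1.2-fold. Atp2a2, Atp2a3 and Itpr3 lie below 1, Ryr2, Atp2a1 and Orai2 above it, and Stim1 and Stim2 at 1.

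The STIM genes had the same levels in both libraries within counting error. Stim1, the main activator of Orai channels, stood at 10.3 RPKM in each library, from 4714 reads in normal and 4669 in treated cells. Its ratio was 1.00 (0.960 to 1.04). Stim2, a sensor that responds to smaller losses of luminal calcium, stood at 26.3 RPKM in normal and 26.5 in treated cells, a ratio of 1.01 (0.971 to 1.04). Stim2 was 2.55 times as high as Stim1 in normal and 2.57 times in treated cells. In reads the gap was smaller, at 5954 for Stim2 and 4714 for Stim1 in normal cells, over 5133 and 10371 exonic bases. Relative to Stim1, Stim2 had a ratio of 1.01 (0.954 to 1.06). Stim1 lies on chromosome 7 from 101917013 to 102086526 and Stim2 on chromosome 5 from 54155841 to 54278399, both on the plus strand with 14 merged exons and no exon overlap with another listed gene.

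The Orai genes, which encode the channel pore, differed in level, and of the 2 among the 10 genes Orai3 was the higher and Orai1 was low. Orai3 stood at 4.77 RPKM in normal and 4.60 in treated cells, a ratio of 0.965 (0.844 to 1.10). Orai1, the channel of the classical store-operated current, stood at 0.434 and 0.319 RPKM, from only 44 and 32 reads. Its ratio of 0.734 (0.451 to 1.18) includes 1, so a difference was not detectable at this depth. Relative to Orai3, Orai1 had a ratio of 0.761 (0.458 to 1.25). Orai3 lies on chromosome 7 from 127368987 to 127374322 and Orai1 on chromosome 5 from 123153137 to 123168519, both on the plus strand. Of the exonic bases of Orai1, 7 overlap the predicted gene Gm2479 on the opposite strand.

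The remaining gene of that family differed more than any of the 7 genes past the filter on the log2 scale. Orai2, which is not among the 10, stood at 3.99 RPKM in normal and 5.52 in treated cells, from 1071 and 1468 reads, a ratio of 1.38 (1.28 to 1.499). Of all features, 8.68% were at least 1.2-fold higher. The ratio of Orai2 was not ranked among features of like level. With Orai2 included, the family summed to 9.20 RPKM in normal and 10.4 in treated cells. Orai3 held the largest share of that sum in the normal library, at 51.9% against 43.4% for Orai2. In the treated library Orai2 held 52.9% and Orai3 44.1%. Orai3 had fewer reads than Orai2 in both libraries, at 451 and 431, over 2141 listed exonic bases against 6077. These shares therefore depend on the listed exons. Relative to Orai3, Orai2 was higher by a ratio of 1.43 (1.23 to 1.68), a comparison chosen after its values were seen.

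**Figure D4:**
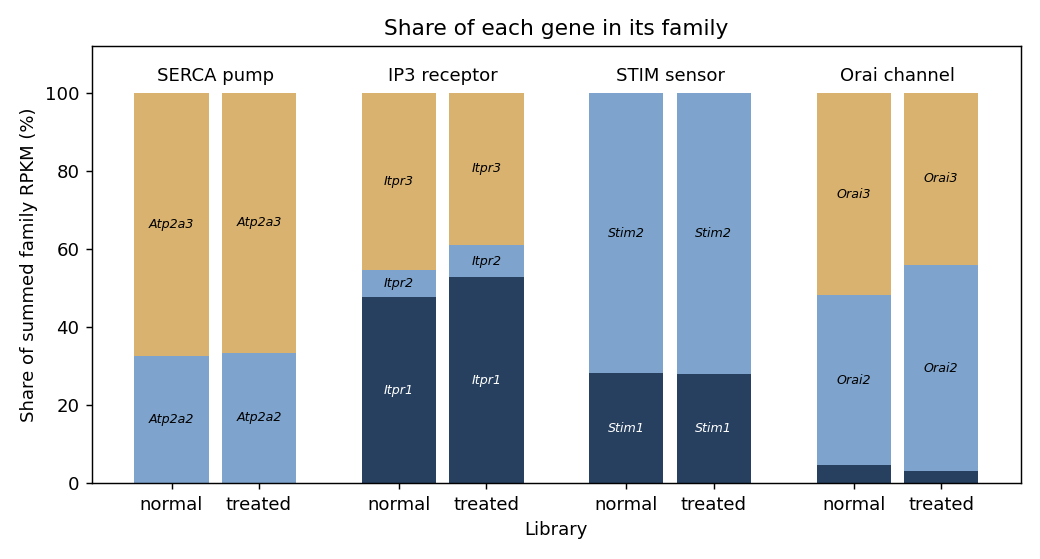
Share of each gene in the summed RPKM of its family (percent) in the normal and the treated library, with Atp2a1 (under 1%, not visible) and Orai2 included and the strip at the foot of the Orai bars being Orai1. The SERCA and STIM bars are nearly the same in both libraries, whereas Itpr3 goes from 45.3% to 38.9% and Orai2 from 43.4% to 52.9%.

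Other genes of ER calcium handling were read from lists of 141 symbols in all, 134 of which are in the table and 100 of which reached a mean of 1 RPKM. Of these 100, 15 were at least 1.2-fold higher and 9 at least 1.2-fold lower in the treated library, beside 8.68% and 8.84% of all features. The same shares are the background of each list. The 15 include Orai2, and 9 of the 15 belong to the list described next. The calcium-binding proteins and chaperones of the secretory pathway lumen, with their membrane relative calnexin, were mostly higher. Of 13 measured members 9 were at least 1.2-fold higher and 0 lower, beside 8.68% and 8.84% of all features, and the median log2 ratio was 0.28. This direction was known from earlier results of these data. Hspa5 had a ratio of 1.80 (1.78 to 1.83) and was the one member past 1.5-fold. Calr, which encodes calreticulin, the main calcium buffer of the lumen, stood at 414.4 RPKM in normal and 545.9 in treated cells, a ratio of 1.32 (1.30 to 1.33). The disulfide isomerase gene Pdia6 had a ratio of 1.43, Calu, the gene of the calcium-binding protein calumenin, one of 1.34, and Nucb2, the gene of nucleobindin 2, one of 1.33. Hsp90b1, the most abundant of the list, had one of 1.21, and its exons share bases with predicted genes on both strands. The members below 0 on the log2 scale were Sdf4, with a ratio of 0.954 (0.928 to 0.981), and Rcn2, with one of 0.960 (0.894 to 1.03).

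Genes whose products act on the pumps or are linked to them showed no member past 1.2-fold among the 6 measured, beside 8.68% of all features higher and 8.84% lower by that much, with a median log2 ratio of 0.13. Vmp1, which encodes an ER membrane protein known to act on SERCA, had the highest ratio at 1.19 (1.12 to 1.25). Selenon, an ER selenoprotein gene, stood at 1.19 (1.05 to 1.33) and the thioredoxin-like gene Tmx2 at 1.13, whereas Selenot, another selenoprotein gene, stood at 0.893 (0.870 to 0.917). Tmx1, a relative of Tmx2, stood at 0.999 (0.958 to 1.04). Pln, the gene of the heart SERCA inhibitor phospholamban, had 0 normal and 2 treated reads. Exons of Tmx2 overlap other listed genes on both strands.

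Regulators of IP3 receptors went both ways, with 6 of 13 measured members above 0 and 7 below, beside 50.7% and 49.3% of all features, and a median of -0.02. Ahcyl1, which encodes IRBIT, a protein that competes with IP3 for its binding site, was the one member at least 1.2-fold lower. It went from 62.8 to 51.0 RPKM, a ratio of 0.812 (0.795 to 0.830). Chgb, the gene of the granule protein chromogranin B and the most abundant of this list, was the one member at least 1.2-fold higher, at 1.34. Over all features 8.84% were lower and 8.68% higher by that much. The Bcl-2 relative Bok had a ratio of 0.862 (0.725 to 1.02) and Tmbim6, the gene of an ER membrane protein of calcium leak, one of 1.13.

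Genes that make or remove IP3, or signal to the enzymes that make it, leaned lower. Of 12 measured members 4 were at least 1.2-fold lower and 0 higher, beside the 8.84% and 8.68% of all features, and the median was -0.11. The 4 were Plcg2 at 0.726 (0.628 to 0.840), Itpkb at 0.801 (0.778 to 0.824), Plcg1 at 0.816 (0.793 to 0.840) and Gna11 at 0.828 (0.790 to 0.868). Plcg1 and Plcg2 encode phospholipases C of the gamma class, which make IP3. Itpkb encodes a kinase that removes it, and Gna11 encodes a G protein subunit that activates phospholipase C of the beta class. Exons of Plcg1 overlap Zhx3 and a predicted gene on the opposite strand. The median of this list moved to -0.04 with no filter on low values. Its count of 4 lower became 3 with a pseudocount of 1 or a mean RPKM of at least 5. It was also 3 when the libraries were scaled without the 10 most abundant genes.

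Among regulators of ryanodine receptors, 1 of 12 measured members was at least 1.2-fold lower and 0 were higher. These counts were near the 8.84% and 8.68% of all features. Of the 12, 9 were below 0 on the log2 scale and 3 above, beside 49.3% and 50.7% of all features. Counting intervals lay below 1 for 5 members and above 1 for 2, beside 22.3% and 22.0%. The median was -0.03, and it moved to -0.17 when only members averaging 5 RPKM or more were kept. Fkbp1b, which encodes the FKBP12.6 protein bound to Ryr2 channels, went from 11.2 to 8.47 RPKM, a ratio of 0.759 (0.662 to 0.869). The calmodulin genes Calm3 and Calm2 had ratios of 0.846 and 0.879, and Calm2 was the most abundant of the list at 1323 and 1162 RPKM. Selenon, which is also counted in the list for the pumps, went the other way, at 1.19 (1.05 to 1.33).

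Regulators of store-operated entry had a median of -0.05 over 17 measured members, with 1 at least 1.2-fold higher and 1 lower, beside 8.68% and 8.84% of all features. Rcan1, a target and inhibitor of calcineurin, was the higher one at 1.22 (1.12 to 1.32), and the count of 1 became 0 with median-of-ratios scaling or a pseudocount of 1. Cracr2b, which encodes a relative of an Orai-binding protein, was the lower one at 0.794 (0.688 to 0.916). That count became 0 with a pseudocount of 1 or a mean RPKM of at least 5. Of the exonic bases of Cracr2b, 1405 (50.8%) overlap the predicted gene Gm10575 on the opposite strand. Gm10575 had 663 normal and 600 treated reads, beside 440 and 346 for Cracr2b. Saraf, whose product shuts off STIM, stood at 37.3 RPKM in normal and 44.6 in treated cells, a ratio of 1.196 (1.15 to 1.24), just under 1.2-fold. Surf4 had a ratio of 1.15, and Esyt1, the most abundant of the list, which encodes a tether between the ER and the plasma membrane, one of 0.898 (0.878 to 0.919). Exons of both overlap a gene on the opposite strand.

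**Figure D5:**
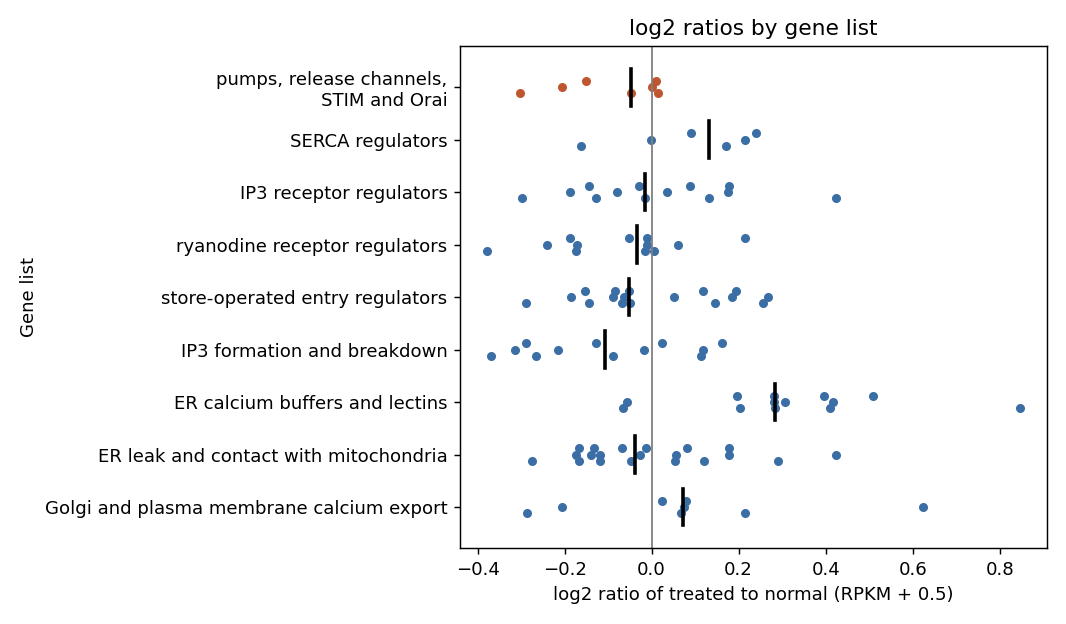
log2 ratio of treated to normal (RPKM + 0.5) of each measured gene, by list, with the 7 measured pump, channel, STIM and Orai genes in orange, the other lists in blue and black bars at the medians. The calcium buffers and lectins have a median of 0.28, while the medians of the other lists drawn lie between -0.11 and 0.13. Orai2, the measured gene of the remaining family members, is not drawn.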

How the data were processed

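RNA was sequenced from MIN6 cells, with 1 library per group, assigned by column names that match the sample titles. The deposited values are RPKM. Per the submitters' processing notes, the authors used Trimmomatic 0.36, edgeR 3.12.1 and build GRCm39. The sources used here do not give the aligner, counter, annotation or strand setting. Each RPKM times its feature's length was a whole multiple of 1 step, which gave whole reads for 100% of values within 0.01 read.

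Ratios of RPKM were given Clopper-Pearson intervals from the treated share of reads, and 7 ratios between genes of a family exact conditional intervals (scipy 1.17.1, Python 3.11.15). Fold counts used log2(RPKM + 0.5) for features averaging 1 RPKM or more. The interval and read recovery were tested on simulated independent reads, so that test does not cover mates counted separately. The 10 genes and the lists were chosen with earlier results of these data known. All 10 are described, with Atp2a1, Ryr1, Ryr3 and Orai2. Of each list, every gene past 1.5-fold, otherwise up to 4 by size of log2 ratio, and the most abundant one were to be named. Calr, Pln, Sdf4, Rcn2 and Tmx1 were added after their values were seen. Alternatives were other scalings, pseudocounts, filters and thresholds, leaving out genes with exon overlaps, and intervals from 50% of the reads. No molecular identifiers are mentioned, so reads may not be independent molecules.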

Additional observations from a re-analysis of the deposited data

How the results depend on the processing

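The count of 1 gene at least 1.2-fold lower among the 7 rests on Itpr3. It was 0 with a mean RPKM of at least 5, at 1.5-fold, at 2-fold and without the genes whose exons overlap another listed gene, and 3 by counting intervals that exclude 1. The mean RPKM and overlap settings leave Itpr3 out by construction. Among the other lists together, the 9 genes at least 1.2-fold lower became 5 with a pseudocount of 1, which shrinks ratios of low features. The median of the 7 genes lay between -0.06 and -0.04 under the scalings and pseudocounts run. It was -0.08 over the 4 genes with a mean RPKM of at least 5, and -0.02 both over the 4 measured genes without exon overlaps and over all 10. Scaling moved ratios by a factor between 0.990 and 1.00, and no ratio of the 10 genes left its interval. With intervals from 50% of the reads, the same 4 genes of the 10 had intervals that exclude 1. Of 208 values for single genes and lists, 10 moved and 198 did not. Some of the 198 could not move. Equal totals of recovered reads gave a scaling factor of 1, and using 50% of the reads leaves the ratio of a gene unchanged. No paired analysis was possible because each group has 1 library. Depth limits Orai1, Ryr1, Ryr3 and Atp2a1.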

Other observations

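Genes that export calcium from the cytosol to the Golgi or out of the cell went both ways, with 1 of 8 measured members at least 1.2-fold higher in the treated library, 1 lower, near the 8.68% and 8.84% of all features, and a median log2 ratio of 0.07. Both counts became 0 with a mean RPKM of at least 5, and the count of 1 lower became 0 with a pseudocount of 1. Slc24a3, a sodium, calcium and potassium exchanger gene, went from 1.07 to 1.92 RPKM, a ratio of 1.79 (1.52 to 2.13). Among the plasma membrane pump genes, Atp2b1 had a ratio of 1.17 (1.14 to 1.196) and Atp2b2 one of 0.795 (0.744 to 0.850). Atp2c1, the gene of the Golgi pump, stood at 0.862 (0.829 to 0.897), close to the ratio of Atp2a3, and 1837 of its exonic bases overlap Aste1 on the opposite strand.

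Genes of ER calcium leak and of contact between ER and mitochondria had a median of -0.04 over 20 measured members, of which 2 were at least 1.2-fold higher and 1 lower, near the 8.68% and 8.84% of all features. The count of 1 lower became 0 with a pseudocount of 1. Sec61a1, the gene of the protein-conducting channel through which calcium can leak, went from 8.85 to 12.05 RPKM, a ratio of 1.36 (1.29 to 1.43). The mitochondrial chaperone gene Hspa9, the most abundant of the list, stood at 1.22 (1.21 to 1.23). Pacs2, which encodes a protein of the contact sites, stood at 0.810 (0.754 to 0.870), and Wfs1, the Wolfram syndrome gene of the ER membrane, at 1.14 (1.05 to 1.24). Exons of Sec61a1 and Pacs2 overlap predicted genes on the opposite strand.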
